A study of Mus musculus with 9 samples.

Results

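The CD300 and TREM receptors of macrophages and Tyrobp, the adaptor through which many of them signal, were followed across resting, inflammatory and light-treated bone marrow-derived macrophages. The set holds 10 of the 55655 rows of the expression tables: 4 CD300 genes (Cd300a, Cd300lb, Cd300ld and Cd300lf), 5 TREM genes (Trem1, Trem2, Trem3, Treml2 and Treml4) and Tyrobp. They were chosen by name as members of the families, with the higher level of Cd300lb after light treatment already known. The comparison of M1 + PBM with M1 macrophages was therefore used in choosing them, and the values of the 10 genes in it are given as a description, with no p-value and with nothing read from how many of them passed a threshold.

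RNA-seq had been performed on macrophages grown from the marrow of the femur and tibia of wild type C57BL/6 mice aged 6 to 8 weeks. All cultures were differentiated with M-CSF at 10 ng/mL for 7 days. M0 macrophages received neither stimulus nor light, M1 macrophages received LPS and IFN-γ for 12 hours, and M1 + PBM macrophages received the same stimulation together with photobiomodulation (PBM), a treatment with low-power light. Each group has 3 libraries, and the labels do not say whether these came from separate mice or cultures. The study describes its RNA-seq of PBM in M1 macrophages as repeated independently 3 times, without naming the unit that was repeated. A p-value here therefore measures only the spread between these libraries. Expression is given in FPKM, fragment density scaled to transcript length and library depth, which allows levels to be compared between genes. M0 values come in a separate table, and the descriptions of the other 6 libraries share a string that those of M0 lack and whose meaning the labels do not give. For M0 against M1 the table, whatever that string marks and the stimulation cannot be told apart, and no test was made between them.

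CD300 and TREM proteins are cell surface receptors of myeloid cells with an extracellular immunoglobulin-like domain, and many of them bind lipids or lipoproteins, including phospholipids exposed on dying cells. The activating receptors have short tails and signal through partner adaptors such as DAP12, the product of Tyrobp, whose phosphorylated ITAM recruits the kinase Syk. The inhibitory receptors carry ITIM motifs in their own tails, which recruit the phosphatases SHP-1 and SHP-2. In macrophages these receptors are known for tuning the uptake of dead cells and the cytokine response to microbial products.

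The labelled cell type was checked against its markers. All 10 macrophage markers were detected, with a summed FPKM of 5515 to 10387 in the 9 libraries. Most of that sum came from Lyz2, at 3459 to 8773 FPKM, and Cx3cr1 was low, at 0.20 to 2.55 FPKM. M0 replicate 3 stood apart in its stromal markers, whose summed FPKM was 205.5 against 6.04 to 29.0 in the other 8 libraries. Some myeloid genes of this library also lay towards M1. Cd14 was at 197.6 FPKM against 76.9 and 44.7 in M0 replicates 1 and 2 (M1 mean 234.7). Pilra was at 16.1 against 4.21 and 1.66 (M1 mean 41.1). Others lay the other way, such as Fcgr4, at 20.9 against 23.2 and 34.9 (M1 mean 298.1). These genes are named after their values were seen, and why the library differed was not tested. For each of the 10 genes M0 replicate 3 was also the M0 library nearest to the M1 mean, and values without it are given below. M1 replicate 2 held albumin (Alb), a liver transcript, at an FPKM of 9.01, where it was listed at 0 in the other 8 libraries. The part of the stromal and albumin transcripts in the results was not tested. Estimated depth was 30880000 to 41990000 fragments per library, and the 3 most abundant rows took 30.9% to 37.8% of the summed FPKM.

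The promoters of 3 of the genes are printed first because they represent the patterns described below: Cd300lb and Trem2, which were lower in M1 than in M0, and Cd300lf, which was higher. Each runs from 250 bases before to 50 bases after the RefSeq start of the gene, 5′ to 3′ on the strand of the gene, in build GRCm38.p6. Capitals mark matches, on either strand, to short motifs of factors known from myeloid or inflammatory genes and to the letters of the TATA box. The windows are chr11:114934322-114934621 (minus strand) for Cd300lb, chr17:48346151-48346450 (plus strand) for Trem2 and chr11:115133943-115134242 (minus strand) for Cd300lf.
Cd300lb: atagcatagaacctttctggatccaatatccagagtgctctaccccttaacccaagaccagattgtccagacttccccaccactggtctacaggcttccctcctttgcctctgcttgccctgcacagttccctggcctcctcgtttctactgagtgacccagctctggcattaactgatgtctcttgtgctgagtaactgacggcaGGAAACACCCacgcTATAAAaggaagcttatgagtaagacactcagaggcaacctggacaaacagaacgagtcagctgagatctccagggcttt
Trem2: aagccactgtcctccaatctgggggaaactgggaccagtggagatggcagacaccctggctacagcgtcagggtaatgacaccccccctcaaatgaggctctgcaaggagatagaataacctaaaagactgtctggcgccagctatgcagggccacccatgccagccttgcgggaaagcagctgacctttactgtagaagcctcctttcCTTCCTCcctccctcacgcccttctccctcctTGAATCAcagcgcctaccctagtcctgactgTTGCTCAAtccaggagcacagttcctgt
Cd300lf: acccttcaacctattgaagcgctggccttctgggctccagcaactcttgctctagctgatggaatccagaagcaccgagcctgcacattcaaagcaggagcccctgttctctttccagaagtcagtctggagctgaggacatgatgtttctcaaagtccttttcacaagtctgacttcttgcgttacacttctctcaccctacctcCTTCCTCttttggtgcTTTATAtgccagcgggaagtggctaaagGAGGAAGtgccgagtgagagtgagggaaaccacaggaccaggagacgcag

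RefSeq promoters were found for 7 of the 10 genes, all but Trem3, Treml2 and Tyrobp. The motif of PU.1, the transcription factor of the myeloid lineage (GAGGAAG), was present in 4 of the 7, Cd300a, Cd300ld, Cd300lf and Trem2, and in 13.6% of 32851 RefSeq promoters of the same length. In Trem2 it began 41 bases and in Cd300lf 44 bases before the start, and Cd300lf held another match at the start itself. The Cd300lb window held a match to an NF-kB motif (GGG, any 3 bases, then TTCC, in 5.56% of promoters) 44 bases before the start. It also held a TATA box (TATAAA, found on either strand anywhere in 13.6% of windows) 30 bases before the start. In Cd300lf these letters lay on the opposite strand, as TTTATA, 28 bases before the start. Trem2 also held a match to a loose AP-1 pattern (TGANTCA with any base at N, 7.81%) 9 bases before the start, with the letters TGAATCA. A C/EBP motif (TTGCNNAA, 10.8%) lay 22 bases after the start of Trem2. The ISRE core (GAAA, any 2 bases, then GAAA, in 3.44% of promoters) was found in 0 of the 7 windows. In the printed windows no match overlapped another, whereas the PU.1 and NF-kB matches of Cd300ld shared bases. These matches describe letters only and show no binding.

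In M0 macrophages the levels spanned a wide range. Tyrobp stood at rank 27 of all rows by mean FPKM, Trem2 at rank 166 and Cd300lb at rank 326. The order Tyrobp, Trem2, Cd300lb, Cd300ld, Cd300a and Cd300lf held within each of the 3 M0 libraries, although across libraries the ranges of Trem2 and Cd300lb, of Cd300lb and Cd300ld, and of Cd300ld and Cd300a overlapped. The other 4 TREM genes had a mean FPKM under 1. After M1 polarization Tyrobp and Trem2 had the highest mean levels, at rank 58 and rank 1420, and Cd300lb was at rank 5050. In M1 replicate 3, however, Cd300ld at 18.1 FPKM lay above Trem2 at 14.6. The mean levels of Treml2, Cd300lb, Cd300a and Trem3 in M1 lay between 4.35 and 5.86 FPKM, and neighbours among them differed by less than their spread.

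**Figure D1:**
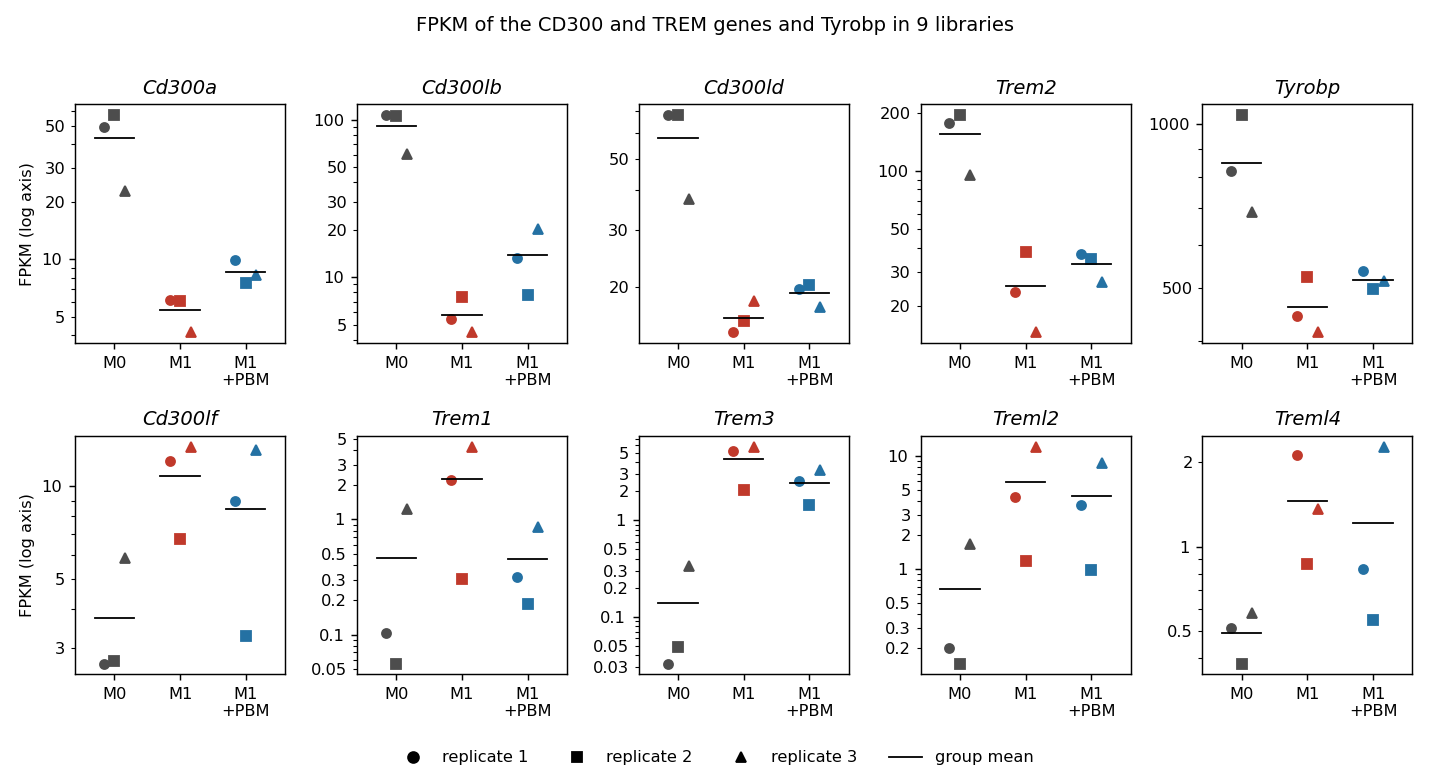
FPKM of the 10 genes on log axes, with 1 point per library for M0, M1 and M1 + PBM macrophages (3 libraries each, shapes give the replicate number) and a line at the group mean. The upper row holds the 5 genes that were lower in every M1 library than in every M0 library, and the lower row the 5 with a higher mean in M1, of which Trem1 and Treml2 overlap between M0 and M1.

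Expression of 3 CD300 genes, Trem2 and Tyrobp was lower in all M1 libraries than in all M0 libraries. Cd300lb, an activating CD300 receptor that pairs with DAP12, had an FPKM of 106.6, 105.2 and 60.1 in M0 and of 5.41, 7.45 and 4.48 in M1. The groups were far apart, and the M1 mean was 6.38% of the M0 mean. On the log2(FPKM + 1) scale, used for all differences here, Cd300lb was lower in M1 by a difference of -3.73 (SE 0.33). Cd300a, an inhibitory receptor with ITIMs that binds phospholipids, went from 49.4, 56.7 and 22.7 FPKM to 6.14, 6.04 and 4.16. Its M1 mean was 12.7% of the M0 mean, a difference of -2.68 (SE 0.43). The values of Cd300ld, an activating receptor that signals through the Fc receptor gamma chain, were 68.1, 68.1 and 37.6 in M0 and 14.5, 15.7 and 18.1 in M1. The remaining level, 27.8% of that in M0, was higher than those of Cd300lb and Cd300a, and the difference was -1.74 (SE 0.29).

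Trem2, a DAP12-coupled receptor for lipids and lipoproteins that is known for promoting phagocytosis and restraining cytokine production, had an FPKM of 177.3, 193.7 and 94.8 in M0. In M1 it was 23.6, 38.2 and 14.6. The M1 mean was 16.4% of the M0 mean, a difference of -2.60 (SE 0.50). The adaptor itself kept a larger share of its level. Tyrobp had an FPKM of 819.8, 1036 and 690.4 in M0 and of 444.4, 524.4 and 415.6 in M1, where its mean was 54.4% of that in M0 and the difference was -0.86 (SE 0.20). The median over the 13593 rows that reached an FPKM of 1 in 3 or more of these 6 libraries was itself -0.35, and it was -0.012 after median-of-ratios scaling over the 9 libraries, where Tyrobp was at -0.43 and Cd300lb at -3.32. The differences of these 5 genes kept their sign under that scaling and under quantile normalization.

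Cd300lf and Trem3 were higher in all M1 libraries than in all M0 libraries. Cd300lf, an inhibitory CD300 receptor for phospholipids and ceramide, had an FPKM of 2.67, 2.73 and 5.88 in M0 and of 12.1, 6.77 and 13.4 in M1, a difference of 1.32 (SE 0.41). Among the CD300 genes it therefore differed in direction from the other 3. Trem3, a DAP12-coupled activating receptor of mouse myeloid cells, was near 0 in M0, at 0.033, 0.049 and 0.33 FPKM, and stood at 5.24, 2.06 and 5.76 in M1. The M0 values correspond to at most about 1.01, 1.68 and 11.5 fragments, so its difference of 2.16 (SE 0.38) depends on the pseudocount and was 4.31 with a pseudocount of 0.1. Treml4, a TREM-like receptor that binds dead cells, was also higher without overlap, from 0.51, 0.38 and 0.58 to 2.12, 0.86 and 1.37 FPKM, but with a difference of 0.69 (SE 0.22) and an FPKM under 1 in 4 of the 6 libraries.

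For Trem1 and Treml2 the M0 and M1 libraries overlapped. Trem1, the DAP12-coupled amplifier of inflammatory cytokine production in neutrophils and monocytes, had an FPKM of 0.10, 0.056 and 1.23 in M0 and of 2.19, 0.31 and 4.28 in M1 (difference 1.03, SE 0.68). Treml2, a TREM-like receptor described on activated myeloid and B cells, had 0.20, 0.15 and 1.66 in M0 and 4.31, 1.19 and 12.1 in M1 (difference 1.79, SE 0.84). In both genes M0 replicate 3 lay above M1 replicate 2. Without M0 replicate 3, both were higher in M1 with no overlap, by 1.38 and 2.19. Without M1 replicate 3 the differences were 0.57 and 1.15. The summed FPKM of 12 neutrophil markers was also higher in M1, at 111.8 to 164.2 against 14.7 to 28.4 in M0. Most of that sum came from Csf3r. S100a8 was also higher in M1 without overlap, at 16.7, 6.90 and 27.2 FPKM against 1.13, 2.11 and 1.29 in M0. So was Camp, at a mean of 1.84 against 0.25, while Mmp8 overlapped. Ly6g and S100a9 were listed at 0 in all 9 libraries, and 8 of the 12 markers were under 1 FPKM in all. In bulk libraries fewer cells with a transcript and less of it per cell cannot be told apart.

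With a minimum difference of 1 on the log2 scale and no overlap between the groups, 6 of the 9 members among the 13593 rows passed, 2 higher and 4 lower in M1, where 21.8% of those rows did (7.78% higher and 14.0% lower). Treml4 was under the FPKM minimum and is not among the 9. Trem1, Trem3 and Treml2 reached the minimum mainly through their M1 values, so the count is a description and no support for a difference of the set. Without M0 replicate 3 the difference was -4.00 for Cd300lb, -3.08 for Cd300a, -2.92 for Trem2 and -2.02 for Cd300ld.

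With PBM the level of Cd300lb was higher than in M1 macrophages without light. Its FPKM in M1 + PBM was 13.1, 7.75 and 20.3, against 5.41, 7.45 and 4.48 in M1. The groups did not overlap, but M1 + PBM replicate 2 lay close to M1 replicate 2. The mean was 5.78 ± 1.52 FPKM without light and 13.7 ± 6.30 with it (SD, n = 3 libraries each), or 6.38% and 15.2% of the M0 mean. The log2 fold change was 1.05 with a limma standard error of 0.33. Set against the M1 library of the same number, the difference was 1.14, 0.051 and 1.96. Its rank by mean FPKM went from 5050 to 2529.

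By the thresholds used for all rows (an unadjusted p not above 0.05 with a log2 fold change of 1 or more in size), 1 of the 9 members in the fit, Cd300lb, was called, beside 0.261% of 12238 rows (0.0245% higher and 0.237% lower with PBM). Since its higher level was known when the genes were chosen, nothing is read from this count. Cd300lb missed the thresholds when M1 replicate 1 (1.02), replicate 3 of M1 (0.91) or replicate 3 of M1 + PBM (0.74) was left out, with median-of-ratios scaling (0.98) and without moderation of the variance (1.05, SE 0.41). Across all rows 1 had an adjusted p under 0.05 in limma (0.00817% of rows), and it was no member.

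Cd300a, next to Cd300lb in the cluster, had an FPKM of 9.89, 7.54 and 8.29 in M1 + PBM against 6.14, 6.04 and 4.16 in M1. All 3 light-treated libraries lay above all M1 libraries, as they did for 8.51% of rows. Its log2 fold change was 0.58 (SE 0.16), below the fold threshold, and its mean stood at 20.0% of that in M0. Among the same-numbered libraries the difference was 0.61, 0.28 and 0.85. For the other 8 members the M1 and M1 + PBM libraries overlapped. Cd300ld had 19.8, 20.3 and 17.3 FPKM with PBM, a log2 fold change of 0.24 (SE 0.12), and in replicate 3 the M1 + PBM value lay below the M1 value. Cd300lf had 8.99, 3.28 and 13.1 FPKM with PBM (log2 fold change -0.43, SE 0.46), with the lowest value of each group in replicate 2.

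Trem2 had an FPKM of 36.9, 35.1 and 26.6 with PBM, and these values lay inside the range of 14.6 to 38.2 seen in M1. Its log2 fold change was 0.44 (SE 0.33), and replicate 2 was lower with PBM, by -0.12. The spread was narrower with PBM, with an SD of 5.48 against 11.9 FPKM, a difference that was not tested. Tyrobp stood at 538.5, 498.8 and 515.6 FPKM, a log2 fold change of 0.17 (SE 0.12), and remained at 61.0% of its M0 mean. For the adaptor, too, replicate 2 was slightly lower with PBM.

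The low TREM genes varied as much between replicates as between groups. Trem1 had 0.31, 0.18 and 0.85 FPKM with PBM and was under the FPKM minimum, so it was not fitted. Its difference from M1 was -0.98, with -1.28, -0.14 and -1.51 in replicates 1 to 3. M1 replicate 2, at 0.31, lay within the range of the light-treated libraries. Trem3 had 2.57, 1.46 and 3.31 FPKM (log2 fold change -0.59, SE 0.35) and was lower with PBM in each same-numbered pair, by -0.81, -0.32 and -0.65, although the groups overlapped. Treml2 had 3.67, 0.99 and 8.70 FPKM, a log2 fold change of -0.25 (SE 0.79), and differed far more between replicate numbers than between the groups. Treml4 had 0.83, 0.55 and 2.27 FPKM (log2 fold change -0.19, SE 0.32), and replicate 3 was higher with PBM.

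**Figure D2:**
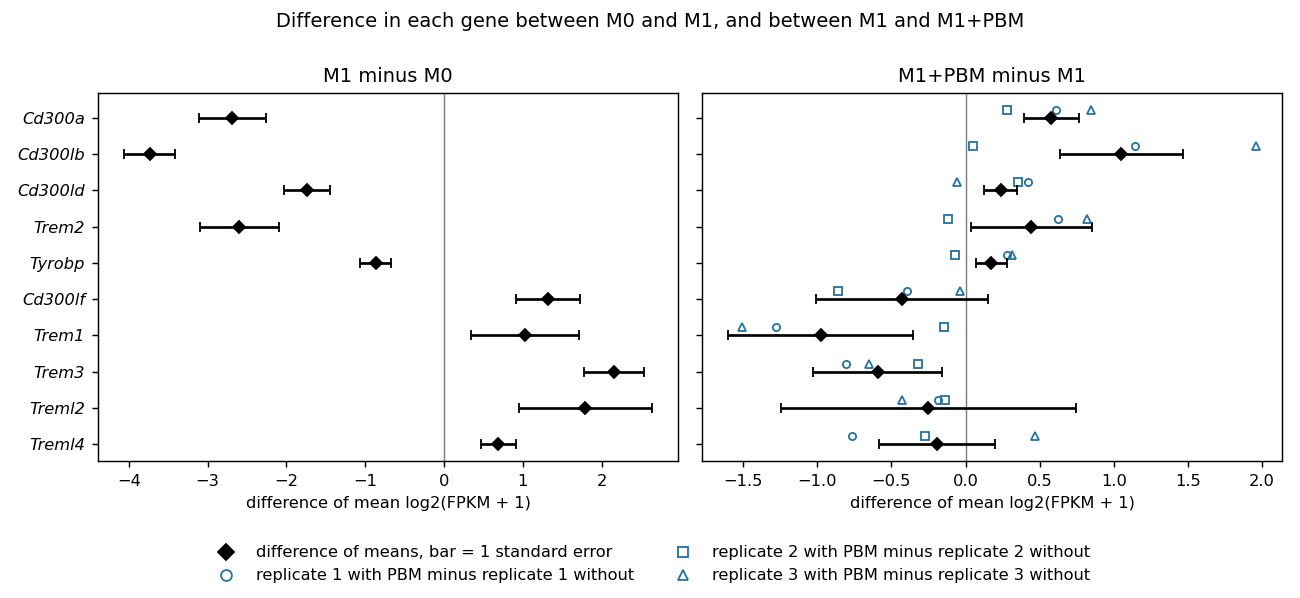
Differences of mean log2(FPKM + 1) for the 10 genes, M1 minus M0 on the left and M1 + PBM minus M1 on the right, with bars of 1 standard error from the spread of the 2 groups (3 libraries each). Open symbols on the right are same-numbered libraries, and for Cd300lb they run from 0.051 in replicate 2 to 1.96 in replicate 3. Both panels use the same M1 libraries, so they are not independent.

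M1 replicate 2, the library with albumin, lay at 1 end of the M1 range for Cd300lb, Trem2 and Tyrobp, where it was highest, and for Cd300lf, Trem1, Trem3, Treml2 and Treml4, where it was lowest. M1 + PBM replicate 2, where albumin was listed at 0, was also lowest in its group for Cd300lf, Trem1, Trem3, Treml2 and Treml4. For Cd300lb and Tyrobp it was lowest too, unlike M1 replicate 2, and for Trem2 it lay in the middle. Without M1 replicate 2 the log2 fold change with PBM was 1.22 for Cd300lb, 0.65 for Cd300a, 0.77 for Trem2 and 0.27 for Tyrobp. For the genes that were low in that library it was -0.70 for Cd300lf, -0.95 for Trem3, -0.89 for Treml2 and -0.37 for Treml4. Other libraries moved the values the other way. When M1 replicate 3 was left out, Trem2 was at 0.11, Tyrobp at 0.10 and Treml2 at 0.39 on the same scale. Omitting M1 + PBM replicate 2 gave 0.060 for Cd300lf, 0.33 for Treml2 and 0.031 for Treml4, and omitting M1 replicate 1 gave 0.00016 for Treml4, so the sign of these 3 genes depended on single libraries. Over all 6 omissions Cd300a stayed between 0.43 and 0.66, Cd300ld between 0.17 and 0.32 and Trem3 between -0.95 and -0.37.

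The members lie in 2 gene clusters and, for Tyrobp, on chromosome 7. In the order of the GENCODE M21 annotation of chromosome 11, the CD300 genes from Cd300a to Cd300ld3 had lower means in M1 than in M0. Among them Cd300ld2, Cd300ld4 and Cd300ld5 overlapped between M0 and M1, and Cd300c did not exceed 0.18 FPKM. The last 2 CD300 genes, Cd300e and Cd300lf, had higher means in M1. Cd300e, an activating receptor of monocytes, went from a mean of 1.88 to 21.3 FPKM, a difference of 3.02. Cd300c2, the most abundant CD300 gene in M0, had a mean of 127.3 FPKM there, 64.7 in M1 and 76.3 in M1 + PBM. Rab37, which lies between Cd300e and Cd300lf and overlaps Cd300lf on the opposite strand, did not exceed 0.11 FPKM. Cd300ld3, Cd300ld4 and Cd300ld5 share 82.1%, 93.8% and 100% of their 50-base stretches with other annotated genes, so their values are uncertain. For the members this share was 3.89% in Cd300ld, 3.18% in Cd300a, 2.29% in Cd300lf and 0 in the others. Stretches were compared in the direction of the transcript only. Genes that overlap a member on the opposite strand, such as Gm11699 in Cd300lb, therefore do not count in these shares.

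On chromosome 17 the TREM genes split within the cluster. Trem1, Trem3, Treml4, Treml2 and B430306N03Rik follow each other and had higher means in M1, the last of them at 29.6 against 15.8 FPKM in M0. Trem2 and Treml1, at the end of the cluster, were lower without overlap. Treml1, a TREM-like receptor known from platelets, had a mean of 3.27 FPKM in M0 and 0.16 in M1 and stood at 0.35, 0.35 and 0.48 in M1 + PBM, above the M1 libraries at 0.15, 0.33 and 0. Its level was too low for the fit. Hcst, the gene of the adaptor DAP10 beside Tyrobp, had a mean of 5.72 FPKM in M0 and 3.71 in M1, and its libraries overlapped.

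**Figure D3:**
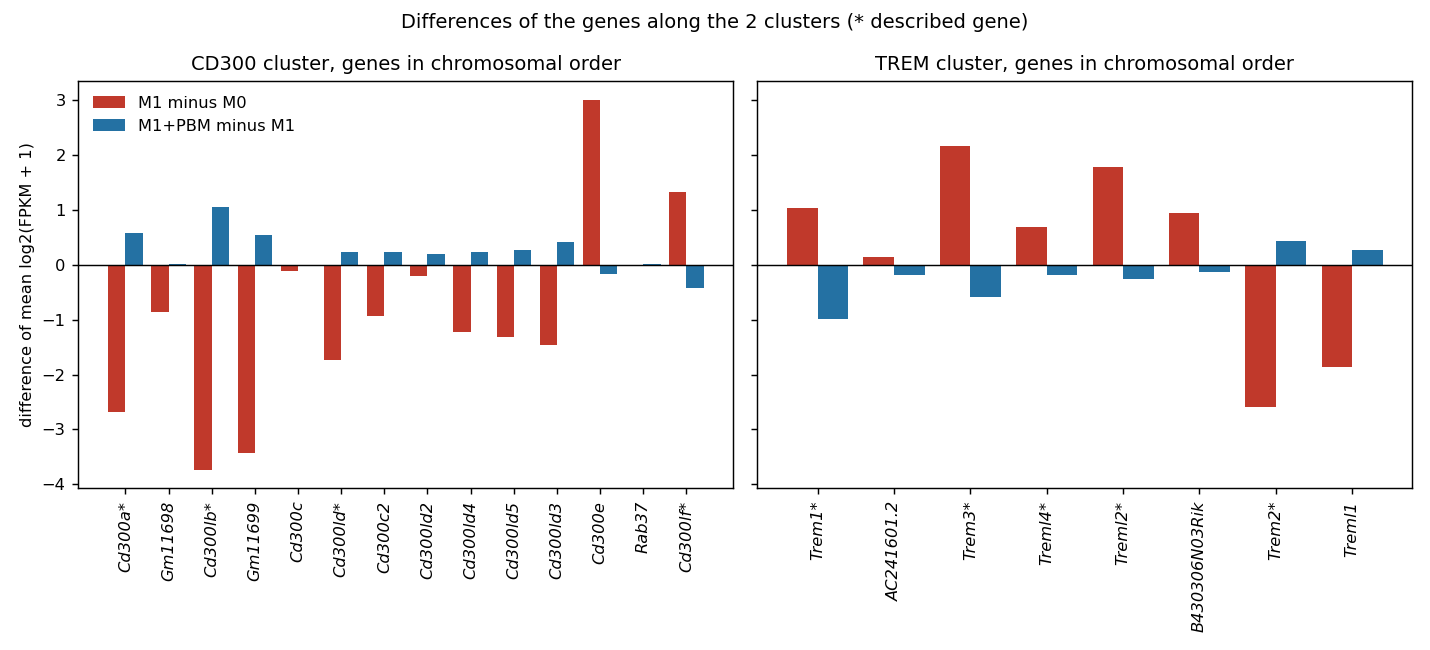
Difference of mean log2(FPKM + 1) for each gene of the CD300 cluster (left) and the TREM cluster (right), in chromosomal order, for M1 minus M0 and M1 + PBM minus M1 (3 libraries a group, which share the M1 libraries). Members carry an asterisk. The M1 minus M0 bars are negative up to Cd300ld3 and positive for Cd300e and Cd300lf on the left, and positive up to B430306N03Rik and negative for Trem2 and Treml1 on the right.

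The rows with levels most like those of Cd300lb were found by the root mean squared difference of log2(FPKM + 1), each row centred on its mean over the 9 libraries, among 13915 rows. The closest were Sesn1 (0.24), Rgs2 (0.27), Cxcr4 (0.31), Gm11699 (0.36) and Cnr2 (0.39). Sesn1, a stress-induced regulator of mTORC1, had an FPKM of 26.1, 32.1 and 18.2 in M0, 1.37, 1.95 and 1.08 in M1, and 3.93, 2.38 and 4.06 in M1 + PBM. Cxcr4, the receptor of the chemokine CXCL12, had 86.0, 67.5 and 38.7 FPKM in M0, 5.32, 5.80 and 3.34 in M1, and 5.35, 5.19 and 11.1 in M1 + PBM. All 5 were high in M0 and low in M1, and the measure is set mostly by that difference. Gm11699 is a processed pseudogene inside Cd300lb on the opposite strand, and since the sources used here do not say whether strand was used in the quantification, its reads and those of Cd300lb cannot be told apart. Among the members, Cd300a and Trem2 were each closest to the other (0.26), as were Cd300ld and Tyrobp (0.45) and Cd300lf and Treml4 (0.44). The closest member to Cd300lb was Cd300a (0.54), and that to Trem1 (0.53), Trem3 (0.46) and Treml2 (0.52) was Cd300lf.

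The other genes of the pathway were taken from 6 lists with 122 different genes, of which 104 were tested in M1 + PBM against M1. Apoe stands in both the ligands and partners and the TREM2-dependent states and is counted once in these totals. By the thresholds above 0 were called, and 0 had an adjusted p under 0.05 in limma or were called without moderation of the variance. At an unadjusted p of at most 0.05, 4 were found, 2 higher and 2 lower, where 4.44% of all rows were (2.99% higher and 1.45% lower). Their median log2 fold change was 0.11 and that of all rows 0.058. Of the list genes, 4 were higher and 1 was lower with no overlap between the groups, beside 8.51% and 2.52% of all rows.

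Among the 18 tested genes of inhibitory signalling, Clec12a, an ITIM-bearing lectin receptor, had an FPKM of 39.6, 52.7 and 43.1 in M1 and of 61.4, 58.1 and 60.5 with PBM (log2 fold change 0.41, SE 0.13). In the same list Dok1, an adaptor that dampens kinase signalling, had 22.4, 25.3 and 25.5 FPKM in M1 and 30.1, 31.0 and 34.4 with PBM (log2 fold change 0.37, SE 0.10). The light-treated libraries of both genes lay above all M1 libraries, but the adjusted p was 0.90 in limma. Of the 26 genes of activating signalling 0 reached an unadjusted p of at most 0.05, and only Plcg2, the phospholipase downstream of Syk, did not overlap, with a log2 fold change of 0.21. Of the 24 genes known from TREM2-dependent macrophage states, Csf1, the gene of M-CSF, was lower with PBM without overlap, at 3.97, 4.68 and 4.66 FPKM against 5.23, 6.44 and 6.87 (log2 fold change -0.40, SE 0.12, adjusted p = 0.90 in limma). Apoa2, an apolipoprotein among the 16 ligands and partners, had a log2 fold change of -0.57 (SE 0.19, adjusted p = 0.90 in limma) and overlapped, and is named after its values were seen. The lists of 15 other receptors and adaptors and of 6 other CD300 genes had medians of 0.018 and 0.24, with 0 genes at an unadjusted p of at most 0.05. Treml1, of the same list, was too low for the fit. B430306N03Rik of the TREM cluster was in none of the lists, and its libraries overlapped (difference -0.12). Of the 6 CD300 genes, only Cd300c2 did not overlap, with a log2 fold change of 0.24. Cd300ld2, Cd300ld3, Cd300ld4 and Cd300ld5 are among the 6 and share 31% to 100% of their 50-base stretches with other genes, so their values may hold the same reads.

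Between M0 and M1, 107 of the list genes were among the rows kept, and 30 were higher and 20 were lower in M1 by a difference of 1 or more without overlap, a rule met by 7.78% (higher) and 14.0% (lower) of the 13593 rows. By this rule 3 of the 24 genes of TREM2-dependent states were higher and 7 lower, and of the 16 other receptors and adaptors 8 were higher and 1 was lower. Activating signalling had 9 higher and 4 lower of 26.

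**Figure D4:**
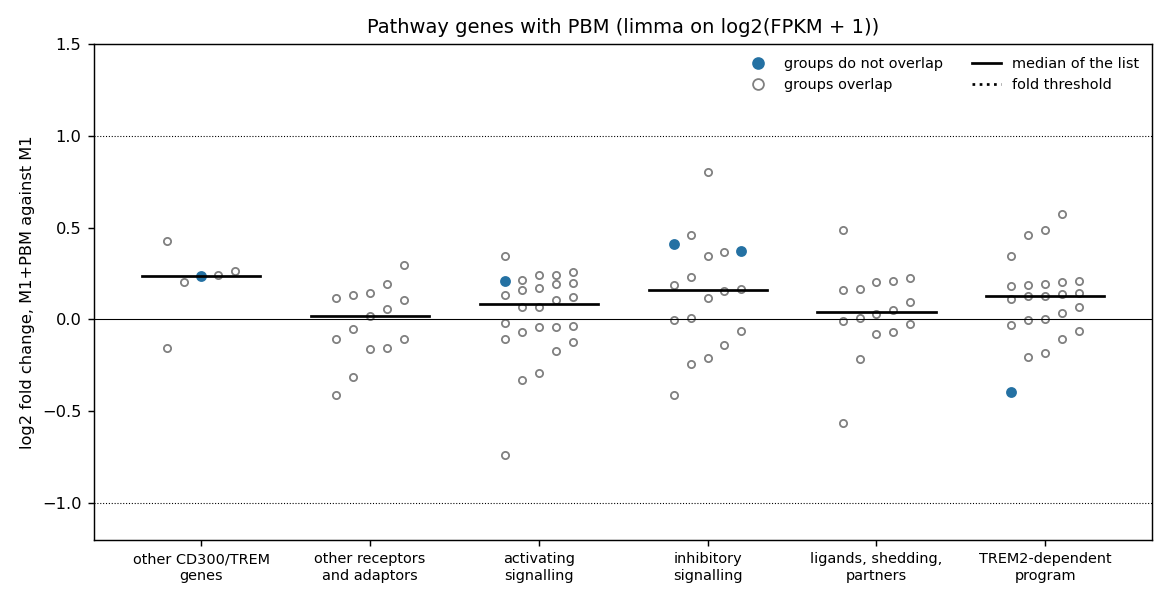
Log2 fold change of the 104 tested pathway genes in M1 + PBM against M1 (limma on log2(FPKM + 1), 3 libraries each), by list, with a line at each list's median and dotted lines at the fold threshold. Apoe belongs to the ligands and partners and to the TREM2-dependent states and is drawn in both. All genes lie inside the fold threshold, and filled points mark the 5 genes whose groups do not overlap, of which Clec12a at 0.41 is the highest and Csf1 at -0.40 the lowest.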

How the data were processed

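The values are FPKM as the authors deposited them, with M0 in 1 table and M1 and M1 + PBM in another. The submitters' processing notes name Bowtie 0.12.2 and mm9, the study's methods name Cufflinks, and 320 row names have the form that StringTie gives. The annotation and use of strand are not given in the sources used here, the libraries being strand-specific per the labels. Symbols, gene order and overlaps came from GENCODE M21, promoters from RefSeq on GRCm38.p6, and coordinates of other features are not printed.

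M1 + PBM was compared with M1 using limma 3.58.1 in R 4.3.3 (lmFit, eBayes with trend) on log2(FPKM + 1), for the 12238 rows that reached an FPKM of 1 in 3 or more of the 6 libraries. A call needed an unadjusted p not above 0.05 with a log2 fold change of 1 or more in size, and Benjamini-Hochberg adjustment was over all rows. The limma fit was tested on simulated data, and the other steps were not. M0 entered no test because the tables are separate. FPKM steps gave the depth, chosen where the largest share of low values lay near a whole multiple. At that depth 36.5% to 39.2% of low values lay within 0.05 fragments of one. Even spread gives 10% at a fixed depth, and choosing the depth raises the share. The depth is an estimate, and no reads were recovered. Fragment numbers behind a gene use its longest transcript and are upper estimates.

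The members and lists were chosen with earlier results of these data known. Named were all members, the 5 rows closest to Cd300lb, each member's closest member, and in each pathway list the genes called or else up to 3 without overlap, and the highest markers. Cluster neighbours, Apoa2, Alb, Cd14, Pilra and Fcgr4 were named besides. All 8 marker lists were summed: dendritic, erythroid, and T and NK cell markers came to at most 1.60, 1.13 and 6.13 FPKM in any library, B cell markers to 19.7 and mast cell and basophil markers to 11.4.

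Deviations from the group mean correlated between same-numbered M1 and M1 + PBM libraries (r of 0.157, 0.469 and 0.462) and lay between -0.491 and 0.0328 for different numbers. Within a group the deviations cancel in each row, so high values for same numbers bring low ones for different numbers. The numbers were taken as pairs only for the differences between same-numbered libraries. The main fit, with its standard errors and calls, ignored the replicate number, and an alternative fit took it as a block. Other alternatives were a pseudocount of 0.1, other FPKM minimums, median-of-ratios and quantile scaling, eBayes without the trend, an unmoderated test, and leaving out each library.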

Additional observations from a re-analysis of the deposited data

How the results depend on the processing

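With the replicate block, 45 rows were called in place of 32 and 988 in place of 543 had an unadjusted p of at most 0.05, 0 pathway genes were called, and 1 member was called as before, Cd300lb (log2 fold change 1.05). A pseudocount of 0.1 called 75 rows and no moderation of the variance 13. Leaving out single libraries gave 27 to 89, the count being 69 without replicate 2 of M1 and 89 without replicate 2 of M1 + PBM. Of the pathway genes 0 to 1 were then called, the 1 being Lair1, an inhibitory collagen receptor, without M1 replicate 2. Cd300lb was not called with median-of-ratios scaling (0.98) or without moderation (1.05), which left 0 members called. Leaving out single libraries moved it between 0.74 and 1.38, with 0 to 1 members called. In M1 against M0, 6 to 9 members passed, with 9 without M0 replicate 3. Of 225 values of members under alternatives, 217 moved by less than the spread between replicates, but 5 of these changed sign, all in M1 + PBM against M1 and all without a single library: Cd300lf 0.060, Treml2 0.39 and 0.33, and Treml4 0.00016 and 0.031. The other 8 were M1 against M0 differences: Trem1 2.20, Trem3 4.31, Treml2 3.02 and Treml4 1.32 with the smaller pseudocount, Cd300lb -3.32, Cd300ld -1.31 and Tyrobp -0.43 with median-of-ratios scaling, and Tyrobp -1.18 with quantile normalization. The 217 include values that could not move. The FPKM minimum, the trend, the moderation and the replicate block leave a member's log2 difference as it is, so the 217 do not measure stability. At most about 11.5 fragments lay behind any M0 value of Trem3, which limits its difference.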
